A study of Danio rerio with 17 samples.

Results

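The genes described here are the acidic chitinase genes of zebrafish (Danio rerio), a family of close paralogs named chia. The list held 5 members, chia.1, chia.2, chia.3, chia.5 and chia.6, picked by symbol from the deposited tables with their values in these libraries already known. For that reason their levels are given as a description, with no test. Of the 5, 4 had a row among the 35117 genes of the tables, and chia.5 was not analysed here. Only chia.6 had a count in any of the 17 libraries, and chia.1, chia.2 and chia.3 were at 0 in every one.

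Transcripts were sequenced from fluorescent cells picked by hand out of adult zebrafish epidermis, with SMART-seq2 amplification of the complementary DNA and paired reads. The 17 libraries fall into 5 groups: MLCs and cLCs with 4 libraries each, and keratinocytes, neutrophils and T cells with 3 each. MLCs and cLCs came from 1 line with a pair of constructs. The first, hsp70:mCherry-T2a-CreERT2, makes mCherry and a recombinase from a heat shock promoter. In the second, mpeg1:loxP-DsRedx-loxP-GFP, the promoter of the macrophage gene mpeg1 drives DsRedx, and GFP after recombination. Which color was picked for MLCs and for cLCs is not said. Keratinocytes came from Tg(krt4:lyn-GFP), neutrophils from Tg(lyz:GFP) and T cells from Tg(lck:DsRedx), so each of those groups rests on 1 promoter. No agent or other treatment is named for any group. MLC and cLC are the labels' own abbreviations, with no full name beside them. Replicates are described as independent experiments, with no number of cells or fish per library, so the spread between libraries may be partly technical.

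Chitin is a polymer of N-acetylglucosamine that stiffens the cuticle of insects and crustaceans and the walls of fungi, and zebrafish also make it themselves. Acidic chitinases are secreted enzymes of glycoside hydrolase family 18 that cut the polymer into short pieces, which hexosaminidases and sugar kinases and deaminases then break down and recycle. In mammals the acidic chitinase is best known from the stomach and from the airway during type 2 immune responses, where chitin of parasites, mites and fungi is met.

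Libraries held 5837662 to 24596883 gene counts, and 4484 to 16921 genes with at least 1 count. The libraries cLCs replicates 3 and 4 and neutrophils replicates 2 and 3 had fewer than 6000 such genes, and results that rest on them are also given without them. Levels are given in CPM, that is counts after TMM scaling of each library, and groups are given as mean ± SD over their 4 or 3 libraries. Levels of different genes are compared in TPM, the authors' deposited values scaled for gene length. The groups were set beside markers of their cell types. These lists include genes of the reporter promoters (mpeg1, lyz, lck and krt4), which are no independent check because cells were picked by those reporters. MLCs had the macrophage gene mpeg1.1 (862 to 1628 CPM) and the epithelial genes cdh1 and epcam, while the leukocyte gene ptprc stood at 0 in 3 of the 4 MLC libraries and at 0.399 CPM in the other. In cLCs all 10 macrophage markers were above 0, with a sum of 7071 to 39968 CPM. All 9 T cell markers with a row were above 0 in T cells and all 7 neutrophil markers in neutrophils, and krtt1c19e was the 1 of 10 keratinocyte markers at 0 in keratinocytes.

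The one member with reads was chia.6 (ENSDARG00000093193), and its reads lay mostly in MLCs and next in neutrophils. In MLCs replicates 1 to 4 chia.6 had 11032, 61859, 43799 and 22949 counts, or 2203, 4042, 2551 and 1756 CPM. In neutrophils replicates 1 to 3 it had 13931, 28492 and 1062 counts, or 589, 1485 and 51.5 CPM. All 4 MLC libraries were high, whereas the neutrophil libraries ran from near the MLC level to far below it. In cLCs replicates 1 to 4 chia.6 had 147, 564, 0 and 0 counts, or 28.5, 61.1, 0 and 0 CPM. T cells replicate 1 had 119 counts (6.06 CPM), the other T cell libraries had 0, and all 3 keratinocyte libraries had 0. In all, 10 of 17 libraries had a chia.6 count, and of its 183954 counts 75.9% were in MLCs and 23.6% in neutrophils.

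**Figure D1:**
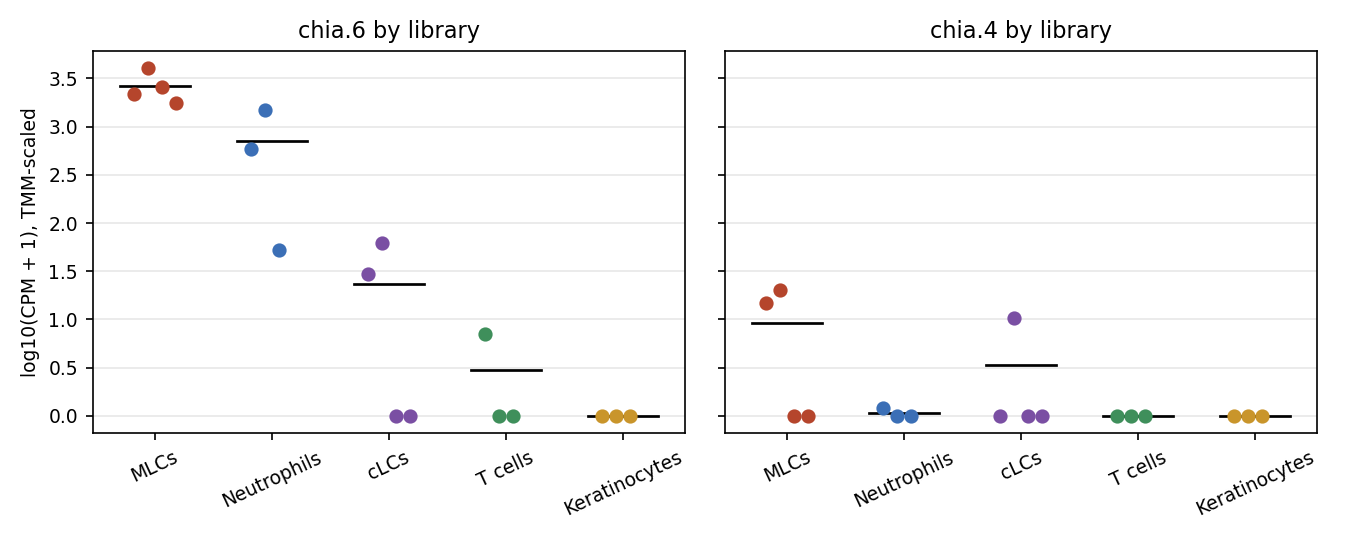
Levels of chia.6 (left) and of its paralog chia.4 (right) in each library, as log10(CPM + 1) on the vertical axis, by group on the horizontal axis; each point is 1 library and the line is the group's mean CPM on the same scale. All 4 MLC libraries lie at the top for chia.6 (1756 to 4042 CPM), the 3 neutrophil libraries spread from 51.5 to 1485 CPM, and the keratinocyte libraries lie at 0.

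By group mean the order was MLCs (2638 ± 991 CPM), neutrophils (709 ± 724), cLCs (22.4 ± 29.1), T cells (2.02 ± 3.50) and keratinocytes (0). Neighbours in this order below MLCs overlapped: the lowest neutrophil library (51.5 CPM) was under the highest cLC library (61.1 CPM), and cLCs, T cells and keratinocytes all had libraries at 0. The mean in MLCs was 118-fold that in cLCs, 277-fold without cLCs replicate 2 and 88.3-fold without cLCs replicate 3 or 4. It was 1305-fold that in T cells, a value that rests on the 119 counts of T cells replicate 1 and was 795-fold in TPM. Without that library T cells were at 0 and MLCs at least 35896-fold higher. Against keratinocytes it was at least 32661-fold higher, taking 3 counts over the group (0.0808 CPM) as the limit that a count of 0 allows. Such limits cover counting error only, since reads amplified with no molecular identifier may repeat 1 molecule. In bulk libraries like these, fewer cells of a type and less RNA per cell cannot be told apart.

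Every MLC library was above every library of each other group on the TMM scale. The same held for 7.8% of the 15247 tested genes against cLCs, 12% against keratinocytes, 13.4% against neutrophils and 11% against T cells. By edgeR's quasi-likelihood test at an adjusted p under 0.05, chia.6 was called higher in MLCs than in keratinocytes, as were 1.44% of tested genes, and this call ended without keratinocytes replicate 3. It was not called against cLCs, neutrophils or T cells, where 0.0131%, 1.53% and 0.774% of tested genes were called higher. DESeq2 and limma on TPM called it against cLCs and T cells too, and edgeR did so against T cells once T cells replicate 1, the T cell library with chia.6 counts, was left out. As chia.6 passed the filter on low counts through the groups in which it is high, nothing is read from these calls.

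In MLCs chia.6 was among the most abundant transcripts. It took 0.189%, 0.290%, 0.257% and 0.146% of all gene counts in replicates 1 to 4, and ranked 122nd, 82nd, 84th and 116th by TPM. Only 0.536% to 1.28% of the genes detected in an MLC library stood above it. In neutrophils it took 0.0566%, 0.202% and 0.00718% of counts and ranked 478th, 119th and 2311th. In cLCs replicates 1 and 2 it ranked 5079th and 3739th, and in T cells replicate 1 it ranked 10234th.

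The spread of chia.6 between libraries also differed between the groups. Its coefficient of variation over MLC libraries was 37.6%, with the highest library 2.30 times the lowest. The median coefficient of variation of the 216 genes with a mean of at least 500 CPM in MLCs was 40.9%, so chia.6 varied about as much as other abundant genes there. In neutrophils it was 102%, with the highest library 28.8 times the lowest, and 89.8% of the 197 genes with a mean of at least 500 CPM varied less. The neutrophil libraries at both ends, replicates 2 and 3, were those with few detected genes. Without the 4 libraries with under 6000 genes, neutrophils rested on replicate 1 alone (589 CPM), and the cLC mean was 44.8 CPM.

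How far MLCs and neutrophils were apart depended on the scaling. With TMM factors the lowest MLC library (1756 CPM) was above the highest neutrophil library (1485 CPM), and the means differed 3.72-fold. Without neutrophils replicate 1, 2 or 3 they differed 3.43-fold, 8.23-fold and 2.54-fold. With RLE factors neutrophils replicate 2 (1964 CPM) passed MLCs replicate 4 (1748 CPM), and the means differed 2.83-fold. With total counts alone neutrophils replicate 2 stood at 2023 CPM, above 2 of the 4 MLC libraries, and the means differed 2.48-fold. In TPM it stood at 959, again above 2 MLC libraries, whose values were 840, 1255, 1127 and 634 TPM, and the means of 964 ± 280 and 424 ± 480 TPM differed 2.27-fold. Neutrophils replicates 1 and 3 were under every MLC library on all 4 scales.

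**Figure D2:**
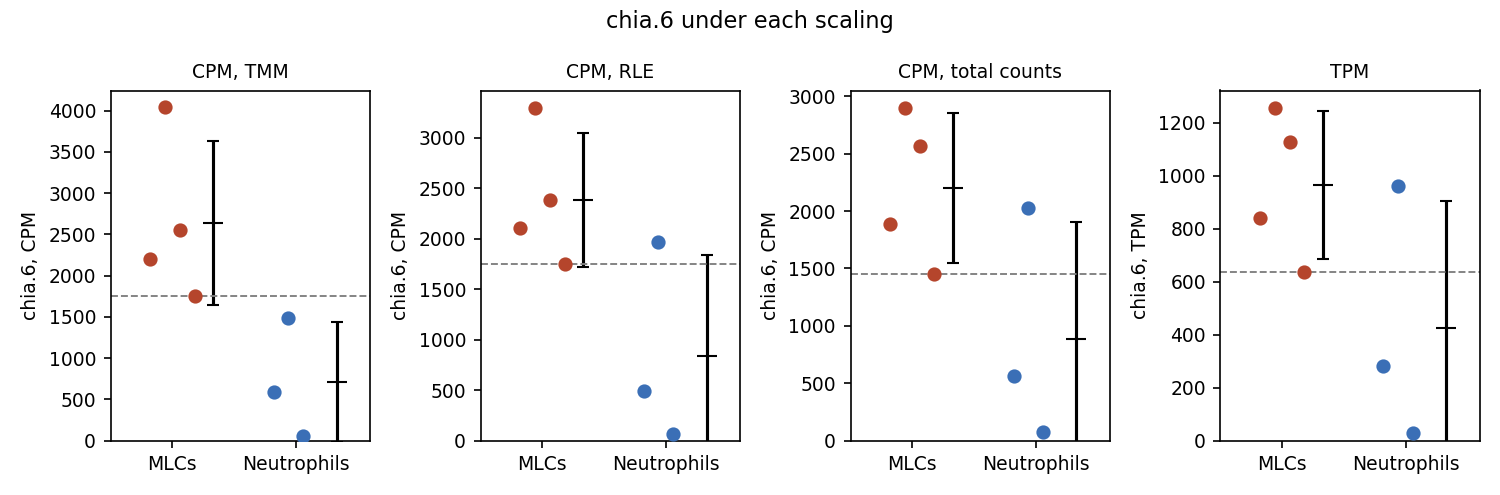
Level of chia.6 in each MLC and neutrophil library under 4 scalings, 1 panel each (CPM with TMM factors, CPM with RLE factors, CPM from total counts, and TPM on the vertical axes); points are libraries, bars are the mean ± SD (where mean minus SD is below 0 the bar ends at 0), and the dashed line marks the lowest MLC library. Only neutrophils replicate 2 crosses that line, at 1964 CPM with RLE factors, 2023 CPM from total counts and 959 TPM, but not with TMM factors (1485 CPM).

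Markers of other cell types were read beside chia.6. The neutrophil list summed to 1167 to 2454 CPM in MLCs and 19610 to 57223 CPM in neutrophils, with 7 of 7 markers above 0 in each. In MLCs the oxidase gene ncf1 (1034 to 2337 CPM) made up most of that sum. The other 6 markers were lower there: lyz and mpx were at 0 in 3 of 4 libraries, and at 0.459 and 0.0765 CPM in replicate 4. The granule gene npsn was read in replicates 1 and 2 (26.2 and 35.4 CPM), and mmp9, nccrp1 and lect2l reached up to 108, 108 and 36.9 CPM. In MLCs replicate 3, with 2551 CPM of chia.6, all 6 were at 0. The macrophage list summed to 872 to 1629 CPM in MLCs (9 of 10 markers above 0) and 1273 to 2239 CPM in neutrophils (4 of 10). In MLCs that sum was nearly all mpeg1.1, and in neutrophils it was spi1b (757 to 1555 CPM) and ptprc (516 to 677 CPM). The genes mpeg1.1 and cdh1, both read in every MLC library, had 0 counts in every neutrophil library, and epcam, whose mean in MLCs was 2565 CPM, reached at most 1.90 CPM there. The keratinocyte list summed to 3097 to 6966 CPM in MLCs (8 of 10 markers above 0) and 31116 to 102765 CPM in keratinocytes (9 of 10), where chia.6 was at 0. The T cell list summed to 0 to 33.5 CPM in MLCs and 0 to 26.5 CPM in neutrophils, against 1462 to 2296 CPM in T cells, with 5 of 9 markers above 0 in both MLCs and neutrophils. In cLCs the T cell list summed to 439 to 2344 CPM, also with 5 of 9 above 0. This came chiefly from cd4-1 (582 ± 341 CPM) and cd8a (510 ± 574 CPM). The markers cd247, cd247l, cd28 and zap70 were at 0 in every cLC library, while all 9 were above 0 in T cells. By the sum of the list cLCs replicate 2, the cLC library with most chia.6, was above every T cell library.

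Because acidic chitinases are known from the gut, markers of exocrine pancreas and gut were read as well. They summed to 28.9 to 100 CPM in MLCs, with 5 of 18 above 0, chiefly the microvillus gene vil1 (32.0 ± 32.4 CPM) and the lipase gene cel.2 (20.0 ± 13.8 CPM). In neutrophils they summed to 214 to 2227 CPM with 2 of 18 above 0. Nearly all of that came from the carboxypeptidase gene cpa5 (985 ± 1088 CPM), which was at 0 in MLCs. The neutrophil sum thus describes cpa5 and not the list as a whole. The genes cpa1, cpa4, cpb1, ela2, ela3l, ctrb1, ctrl, prss59.1, prss59.2, cel.1, amy2a and fabp2 were at 0 in both groups. The elastase gene ela2l and fabp1b.1 had counts in MLCs and none in neutrophils, and prss1 had 1 count in MLCs and 0 in neutrophils. In cLCs, keratinocytes and T cells the list reached at most 24.3 CPM. The mucous and club cell list summed to 0.0582 to 218 CPM in MLCs, with 3 of 7 above 0, and to 1751 to 4954 CPM in keratinocytes. The ionocyte list reached 2.60 CPM in MLCs and 0 in neutrophils.

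The low chia.6 counts of cLCs and T cells came in the libraries of those groups with the most detected genes. cLCs replicates 1 and 2 had 16200 and 15203 detected genes, against 5662 and 4484 in replicates 3 and 4, where chia.6 was at 0. T cells replicate 1 had 16921. In cLCs replicate 1 chia.6 stood at 1.08% of its MLC mean, beside 0.447% for cdh1, 0.106% for epcam and 9.31% for krt4. In cLCs replicate 2 the shares were 2.32% for chia.6, 2.42% for cdh1, 3.44% for epcam and 2.91% for krt4. In T cells replicate 1 chia.6 stood at 0.855% of its neutrophil mean, while the 7 neutrophil markers stood at 1.16% (lyz) to 3.47% (nccrp1) of theirs. The part of other cells' RNA or of detection depth in these low values was not tested.

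The other members gave no reads. chia.1 (ENSDARG00000100635), chia.2 (ENSDARG00000099185) and chia.3 (ENSDARG00000009612) were at 0 in all 17 libraries. Over the 258098613 gene counts of the series this allows up to 0.0116 CPM of each, here per total counts. They share a count of 0 everywhere with 9794 of the 35117 genes, or 27.9%. In the order of genes in the RefSeq assembly GRCz12tu, chia.1, chia.2 and chia.3 stand together in 1 cluster, with the chitinase-like gene ovgp1 among them, and chia.4, chia.5 and chia.6 follow one another in another cluster. The members at 0 are thus those of the first cluster, and ovgp1 also reached at most 0.108 CPM in any library. How the authors' counting treated reads that match several paralogs is not stated in the labels, so reads could have been placed on another copy or dropped, and the counts of single members are uncertain to that extent.

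The paralog chia.4 (ENSDARG00000008541), which is not on the list of members, was the other family gene with reads. It had 69 and 291 counts in MLCs replicates 1 and 2 (13.8 and 19.0 CPM), 0 in MLCs replicates 3 and 4, 87 counts in cLCs replicate 2 (9.42 CPM) and 5 in neutrophils replicate 1 (0.211 CPM). All other libraries were at 0. Each of the 4 libraries with chia.4 also had chia.6, and each had at least 11404 detected genes, while MLCs replicates 3 and 4 had 10115 and 8972. In TPM, chia.4 stood at 8.60 and 9.67 in MLCs replicates 1 and 2, where chia.6 stood at 840 and 1255. By edgeR's test chia.4 did not differ between MLCs and any other group (adjusted p = 0.966 against cLCs, 0.258 against keratinocytes, 0.33 against neutrophils and 0.281 against T cells), and DESeq2 called it higher than in keratinocytes and in T cells.

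The enzymes that act after a chitinase were present in MLCs at far lower levels than chia.6. The list of chitin breakdown genes also held the chitinase paralog chia.4. Of the 11 tested genes of this list edgeR called none in any of the 4 comparisons with MLCs. At an unadjusted p under 0.05 there were 0 against cLCs, 2 against keratinocytes (chia.4 and ctbs), 1 against neutrophils and 1 against T cells (chia.4). The share of all tested genes under that p was not computed, so nothing is read from these counts. Among the breakdown genes hexb and hexa encode the lysosomal hexosaminidases that release single sugars from chain ends. In MLCs hexb was the more abundant, at 82.5 ± 58.0 TPM, and hexa stood at 18.3 ± 4.94 TPM. In cLCs hexb stood at 175 ± 44.7 TPM. The gene ctbs encodes chitobiase, a lysosomal enzyme that cuts the N-acetylglucosamine pair at the root of N-linked sugar chains. It stood at 41.3, 48.3, 21.6 and 0 TPM in MLCs replicates 1 to 4, at 37.9, 56.5 and 52.8 TPM in neutrophils, at 134 ± 108 TPM in cLCs, and at 0 in all keratinocyte libraries. Thus ctbs, like chia.6, had reads in MLCs and neutrophils and none in keratinocytes, but its highest group was cLCs, where chia.6 was low.

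The genes that recycle free sugars were read in most groups. nagk, the N-acetylglucosamine kinase gene, stood at 41.5 ± 37.6 TPM in MLCs, and amdhd2, whose enzyme takes off the acetyl group, at 23.9 ± 7.52 TPM. gnpda1 and gnpda2, which encode the deaminases of the last step, stood at 18.1 ± 17.6 and 3.41 ± 3.24 TPM in MLCs, and gnpda1 at 166 ± 69.3 TPM in cLCs. The chitinase domain gene chid1 stood at 8.01 ± 7.06 TPM in MLCs, the O-linked sugar hydrolase gene oga at 17.2 ± 10.6 TPM, the hexosaminidase gene hexdc at 1.39 ± 1.76 TPM and the epimerase gene renbp at 0.0101 ± 0.0201 TPM. None of the breakdown genes passed edgeR's test between MLCs and another group in the fit reported here. DESeq2 called ctbs higher in MLCs than in keratinocytes and gnpda2 higher than in neutrophils. For ctbs edgeR also did so with no filter on low counts and with the replicate number as a block.

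Set against these enzymes, chia.6 was the most abundant in every MLC library. In TPM it was 18.3, 14.6 and 6.91 times the next most abundant breakdown gene, hexb, in MLCs replicates 1 to 3, and 15.3 times gnpda1 in replicate 4. In neutrophils it was 4.80 times hexb in replicate 1 and 16.98 times ctbs in replicate 2, but 0.284 times amdhd2 in replicate 3. In cLCs replicates 1 and 2 it was 0.0497 and 0.0600 times the most abundant breakdown gene. The order was thus reversed between MLCs, where the chitinase led, and cLCs, where it was far below the lysosomal and recycling genes.

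**Figure D3:**
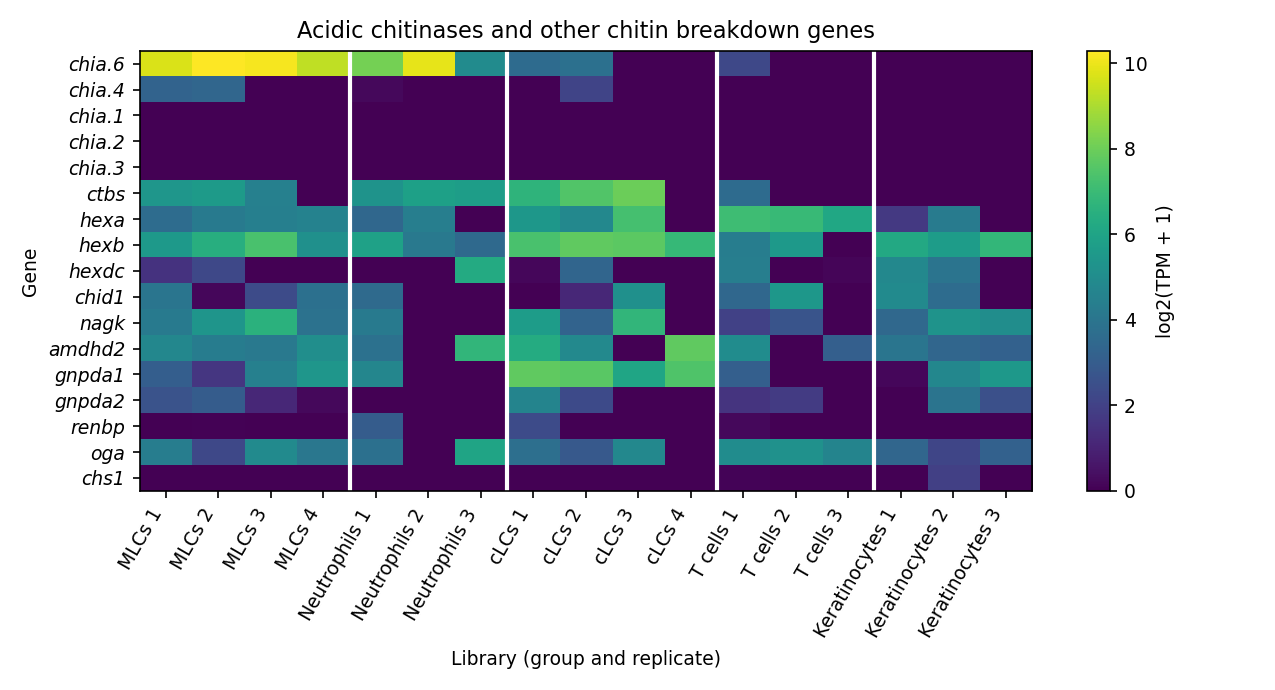
Heat map of the acidic chitinase genes, the other chitin breakdown genes and the chitin synthase gene chs1 (vertical axis) in each of the 17 libraries (horizontal axis, groups parted by white lines), colored by log2(TPM + 1). chia.6 is the brightest gene in all 4 MLC libraries (634 to 1255 TPM) and in neutrophils replicates 1 and 2. In cLCs the brighter genes include hexb, gnpda1 and ctbs, and amdhd2 is the brightest in replicate 4 (219 TPM).

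Chitin synthesis was hardly read. The chitin synthase gene chs1 had 101 counts in keratinocytes replicate 2 (2.84 TPM), 4 counts in T cells replicate 1 and 0 elsewhere, MLCs included. The synthase genes chs2 and chs3 were not analysed here. Of the genes that make or transport the sugar nucleotide from which chitin and other glycans are built, 8 were tested. Of these 1 was called, as lower in MLCs than in keratinocytes. This was gfpt2, which, like its paralog gfpt1, encodes an enzyme of the first step of that route. gfpt2 stood at 115, 418 and 79.9 CPM in keratinocytes and at 0 in all MLC libraries, so keratinocytes were at least 3443-fold higher. In edgeR's test the fitted log2 change was -14.64 (SE 3.29, adjusted p = 0.0338), a value that depends on the prior count. The call against keratinocytes ended when any of the MLC or keratinocyte libraries was left out (adjusted p = 0.0590 to 0.164). For gfpt2 the fitted log2 change was 0 against cLCs and neutrophils, and -5.58 against T cells (SE 2.43, adjusted p = 0.293). For gfpt1, which was not called, the change was 4.71 against cLCs (SE 2.73) and -0.775 against keratinocytes (SE 2.52). Against neutrophils the change of gfpt1 was 7.94 (SE 3.22), and against T cells 0.932 (SE 2.59). gnpnat1, the acetyltransferase gene of the same route, stood at 835 ± 280 TPM in keratinocytes and 42.5 ± 22.0 TPM in MLCs (edgeR adjusted p = 0.212). DESeq2 and limma on TPM called it lower in MLCs. edgeR also did so with only the 2 groups and without the 4 libraries with under 6000 genes.

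Genes that sense chitin or carry type 2 signals, under which mammalian acidic chitinase is known to be induced, gave no edgeR call among 10 tested in any of the 4 comparisons. At an unadjusted p under 0.05 there were 0, 1, 4 and 5 of them against cLCs, keratinocytes, neutrophils and T cells. The share of all tested genes under that p was not computed, so nothing is read from these counts. The cytokine genes il4 and il13 were at 0 in all MLC and keratinocyte libraries. In neutrophils il4 stood at 893 TPM in 1 of 3 libraries and at 0 in the others (298 ± 515 TPM). In T cells il4 was above 0 in 2 of 3 libraries (8.48 ± 8.08 TPM), and in cLCs it had 1 count. The fitted log2 change of il4 against neutrophils was -13.57 (SE 4.17), which rests on the 1 neutrophil library. With no filter on low counts edgeR called il4 lower in MLCs than in neutrophils. il13 had counts in 1 T cell library (21.4 TPM) and in no other group. The receptor gene il4r.1 stood at 9.54 ± 3.76 TPM in MLCs, and stat6, the transcription factor downstream of it, at 26.8 ± 10.9 TPM. DESeq2 and limma on TPM called il4r.1 higher in MLCs than in neutrophils and in T cells (edgeR adjusted p = 0.214 and 0.0971). Against T cells edgeR did so with only the 2 groups and with the replicate number as a block. The chitin and lipoprotein sensor gene tlr2 stood at 7.35, 14.9, 18.2 and 30.5 TPM in MLCs and at 0 in every keratinocyte and neutrophil library. By edgeR's test tlr2 had adjusted p = 0.0794 against keratinocytes and 0.062 against neutrophils. Both DESeq2 and limma on TPM called it higher in MLCs in both comparisons. edgeR also did so with no filter on low counts, with only the 2 groups and with the replicate number as a block. In cLCs it stood at 45.7, 2.51, 0 and 34.9 TPM (20.8 ± 23.0), a higher mean than in MLCs (17.7 ± 9.63 TPM). In CPM the order was the other way, with means of 58.4 ± 32.8 in MLCs and 55.4 ± 65.0 in cLCs. Like chia.6 tlr2 had no keratinocyte count, but it had no neutrophil count either. Its mean in cLCs was near that in MLCs, whereas chia.6 was low in cLCs.

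Lysozymes cut peptidoglycan, the bacterial polymer that also holds N-acetylglucosamine. lyz was called lower in MLCs than in neutrophils (edgeR log2 change -13.79, SE 2.80, adjusted p = 0.0179). It stood at 1823 ± 620 CPM in neutrophils and 0.115 ± 0.230 CPM in MLCs. Neutrophils were picked by a lyz reporter, so this is no independent result, and the call ended without MLCs replicate 1 or 2 (adjusted p = 0.0560 for each). The goose-type lysozyme gene lygl1 was abundant where chia.6 was and also where it was low. It stood at 1461 ± 908 TPM in MLCs, 1738 ± 424 in cLCs, 634 ± 783 in neutrophils, 99.4 ± 46.1 in keratinocytes and 4.18 ± 7.23 in T cells.

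Over the 4 lists of breakdown, synthesis, sensing and lysozyme genes, 49 symbols were listed. Under these symbols 42 identifiers had a row and 32 were tested. edgeR called 0 of the 32 higher in MLCs in each of the 4 comparisons, and lower 1 against keratinocytes, 1 against neutrophils and 0 against cLCs and T cells. Of all tested genes 0.157%, 0.472%, 0.367% and 0.433% were called lower in MLCs than in cLCs, keratinocytes, neutrophils and T cells. At an unadjusted p under 0.05 there were 1, 6, 8 and 9 listed genes in the same order of groups. The share of all tested genes under that p was not computed, so nothing is read from these counts. DESeq2 called 1, 4, 5 and 5 listed genes higher and 0, 2, 1 and 0 lower. Of all 15247 genes it called 614, 1543, 2350 and 1026 higher and 483, 568, 399 and 398 lower. With limma on TPM 0, 1, 2 and 3 listed genes were called higher and 0, 2, 1 and 0 lower. Of all 14575 genes there, 800, 864, 952 and 838 were called higher and 424, 974, 346 and 1176 lower. The median log2 change of the listed genes was 0.02, -0.10, 1.501 and 1.93, beside 0.13, 0.30, 1.08 and -0.09 over all tested genes.

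The genes whose levels over the 17 libraries were most like those of chia.6 were found by Pearson correlation of log2(TPM + 1) among 14575 genes. They are a description of shared profiles, in which 7 libraries with chia.6 at 0 weigh heavily and all genes share the depth of each library. The 3 highest were runx1 (r = 0.904), a transcription factor gene of blood development, arid5b (0.895), a chromatin regulator gene, and stx2a (0.871), a membrane fusion gene. Next came ccdc180 (0.869), bpgm (0.849), which encodes a mutase of glycolysis, ncf1 (0.848), a subunit gene of the phagocyte oxidase, and pigrl4.2 (0.847), a gene like the polymeric immunoglobulin receptor. lrrc15 (0.844), the surface glycoprotein gene thy1 (0.843) and the nonmuscle myosin gene myh9a (0.840) completed the 10.

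These genes also had their reads mainly in MLCs and neutrophils, but at other ratios. In MLCs runx1 reached 16.7 ± 6.94 CPM, against 3.75 ± 2.11 CPM in neutrophils, and thy1 stood at 3361 ± 2601 and 412 ± 213 CPM in these groups. ncf1 stood at 1571 ± 614 and 1253 ± 982 CPM, so that its groups overlapped. lrrc15 was lower in MLCs (141 ± 58.3 CPM) than in neutrophils by its mean (254 ± 228 CPM), where 1 library was at 0. The choice of genes was sensitive: without the 4 libraries with under 6000 genes 3 of the 10 remained among the first 10, and pigrl4.2 came first with r = 0.990 over 13 libraries.

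**Figure D4:**
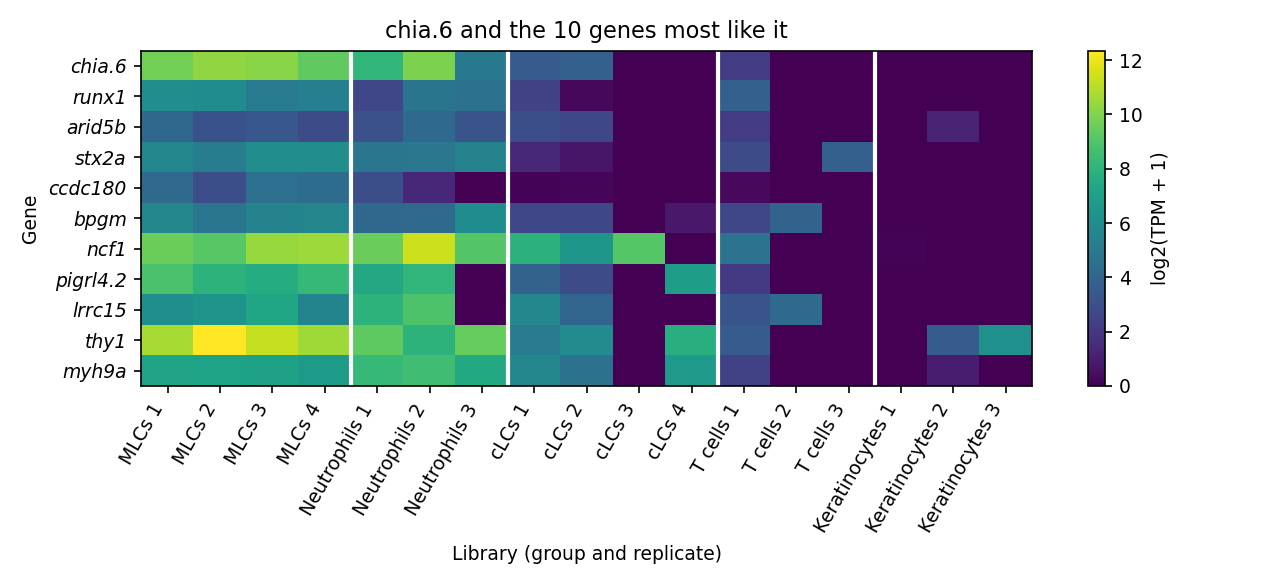
Heat map of chia.6 and the 10 genes with the highest Pearson correlation with it (vertical axis) in each of the 17 libraries (horizontal axis, groups parted by white lines), colored by log2(TPM + 1). All 11 genes are above 0 in the 4 MLC libraries, most are also read in neutrophils, and most are at or near 0 in keratinocytes and in T cells replicates 2 and 3.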

How the data were processed

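Hand-picked epidermal cells of adult zebrafish were profiled as 17 libraries of 5 groups, grouped by their labels. Per the submitters' processing notes, STAR, featureCounts and the build danRer10 were used; neither versions, annotation release nor strand setting is stated there. The authors deposited raw counts per gene and TPM per gene (scaled for length and library). Of the 35572 lines of each table, 455 repeated an earlier identifier and were dropped, so 35117 genes were used. Symbols came from the table for 22753 identifiers and from a gene name table for 4536 more.

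Counts were fitted with edgeR 4.0.16 in R 4.3.3 (TMM factors, filterByExpr by group, quasi-likelihood test, all 17 libraries, no covariates). The filter kept 15247 genes, of which 1 was a member. Benjamini-Hochberg adjusted p over all of them under 0.05 was called. The SE beside an edgeR log2 change is its absolute value over the square root of the test's F. It is not a standard error that edgeR fits, and is only approximate where a group is at 0. The biological coefficient of variation common to all genes was 2.03, and the fits were tested on simulated data. Alternatives were RLE factors, DESeq2 1.42.0, no filter, at least 10 CPM in 3 libraries, limma 3.58.1 on log2(TPM + 1) where 3 libraries reach 1 TPM, only the 2 groups compared, the replicate number as a block, leaving out each library, and for profiles Spearman correlation, a pseudocount of 0.1 and no filter. Leaving out the 4 libraries with under 6000 genes, counting libraries in TPM, and folds of chia.6 without single libraries of other groups were added after seeing the data.

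The members and lists were chosen with earlier results of these data known. Named were all members, every chitin breakdown and chitin synthase gene with a row, the 3 called genes with the smallest adjusted p per comparison and direction, and the 10 genes most like chia.6 with a symbol that is no placeholder. gfpt1, gnpnat1, il4, il13, il4r.1, stat6, tlr2, lygl1 and ovgp1 were named after their values were seen. RefSeq's table of GRCz12tu, another build than danRer10, served only for the order of genes.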

Additional observations from a re-analysis of the deposited data

Results flagged for a closer look

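A total of 47 groups of 4 libraries were read for a library far from the other 3. They covered the chitinase genes, the listed genes named by rule and the genes most like chia.6. Genes named only after their values were seen, il4 among them, were not included. Among normally spread values chance gives such a library in about 1 in 20 groups, and 8 were found. In 4 of the 8 the other 3 libraries were at 0, where any count stands out. The paralog chia.4 stood at 9.42 CPM in cLCs replicate 2 and at 0 in the other cLC libraries. renbp stood at 0.0653 CPM in MLCs replicate 2 and at 5.43 CPM in cLCs replicate 1, with 0 in the others of each group. lyz stood at 0.459 CPM in MLCs replicate 4 and 0 in the other MLC libraries. hexdc stood at 23.2 CPM in cLCs replicate 2 (others 0 to 0.194), and chid1 at 22.9 CPM in cLCs replicate 3 (others 0 to 2.49). runx1 stood at 1.36 CPM in cLCs replicate 1 (others 0 to 0.108), and thy1 at 7245 CPM in MLCs replicate 2 (others 1850 to 2410). chia.6 had no such library in MLCs or cLCs.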

How the results depend on the processing

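The mean of chia.6 in MLCs was 2383 CPM with RLE factors and 2203 from total counts, and 2170 to 2932 CPM when each MLC library was left out. MLC libraries above every neutrophil library numbered 4 with TMM factors, 3 with RLE factors, and 2 from total counts or in TPM. For chia.6 against cLCs, with 0 calls in the fit reported above, there was 1 call under DESeq2, no filter, limma on TPM and the replicate block. Against neutrophils there was 1 under the replicate block. Against T cells there was 1 under DESeq2, no filter, limma on TPM, only the 2 groups, the replicate block and without the 4 libraries with under 6000 genes. Leaving out each library gave 0 to 1 calls against keratinocytes (0 without keratinocytes replicate 3) and 0 to 1 against T cells (1 without T cells replicate 1). Of all genes tested, 90 of 17210 were called higher than in keratinocytes without keratinocytes replicate 3. Without T cells replicate 1, 59 of 16629 were called higher than in T cells. Totals over all genes for the other settings are given below.

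Listed genes called higher in MLCs, 0 above, became 1 under DESeq2 against cLCs. Against keratinocytes they became 4 under DESeq2, 1 under limma on TPM, and 2 under no filter, only the 2 groups, the replicate block and without the 4 libraries. Against neutrophils they became 5 under DESeq2, 2 under limma on TPM, and 1 under no filter, at least 10 CPM, only the 2 groups and the replicate block. Against T cells they became 5 under DESeq2, 4 without the 4 libraries, 3 under limma on TPM and only the 2 groups, and 2 under no filter and the replicate block. Leaving out each library gave 0 to 1 against keratinocytes (1 without cLCs replicate 3), 0 to 1 against neutrophils (1 without cLCs replicate 3 or 4) and 0 to 2 against T cells (2 without neutrophils replicate 3). Of all genes tested, 262 were called higher against keratinocytes and 343 against neutrophils without cLCs replicate 3. Without cLCs replicate 4 it was 405 against neutrophils, and without neutrophils replicate 3 it was 174 against T cells. Listed genes called lower, 1 against keratinocytes, became 2 under DESeq2, limma on TPM and without the 4 libraries, and 3 with only the 2 groups. Leaving out each library gave 0 to 1 there, and 0 to 1 against neutrophils, where no filter and the fit without the 4 libraries gave 2. Against T cells no filter gave 1. Of all genes tested, 376 were called lower against keratinocytes without the 4 libraries and 426 with only the 2 groups. With no filter 196 were called lower against neutrophils and 150 against T cells. Of the 10 genes most like chia.6, 6 were shared under Spearman correlation and 3 without the 4 libraries. The causes were not tested.

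Over all tested genes, calls higher in MLCs are given here in the order cLCs, keratinocytes, neutrophils and T cells. They numbered 2, 219, 234 and 118 of 15247 with edgeR and 614, 1543, 2350 and 1026 with DESeq2. With limma on TPM they numbered 800, 864, 952 and 838, and with the replicate block 126, 370, 440 and 327. With no filter they numbered 141, 414, 478 and 348 of 25323. At least 10 CPM gave 5, 245, 305 and 165 of 10418. With only the 2 groups they numbered 5 of 9754, 694 of 11438, 503 of 10221 and 691 of 12003. Without the 4 libraries they numbered 21, 694 and 552 of 19930 against cLCs, keratinocytes and T cells.

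Libraries of the same replicate number were little alike: 2 of 31 such pairs had deviations correlated above 0.1, with a median of 0.0102. For different numbers it was 1 of 84 pairs, with a median of -0.00598. Detected genes nevertheless fell with the number in MLCs (15684, 15113, 10115 and 8972) and cLCs (16200, 15203, 5662 and 4484). Whether same-numbered libraries share a source was not tested. Depth limits low levels: a count of 0 allows up to 0.0593 CPM over MLCs and 0.0808 over keratinocytes, and the fit's large spread between libraries limits what is called.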

Other observations

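Of the 53 genes with at least 1000 CPM in every MLC library, 6 were at 0 in all keratinocyte libraries, a set chosen after its values were seen. Beside chia.6 these were the granulin gene grn2 (11691 ± 5497 CPM in MLCs), the claudin gene cldnh (5094 ± 1860), si:ch73-359m17.7 (3548 ± 1440), ENSDARG00000086294 (1530 ± 470) and si:ch73-359m17.5 (1397 ± 291). In neutrophils grn2, cldnh and ENSDARG00000086294 were at 0 and si:ch73-359m17.7 stood at 1.12 ± 1.78 CPM. There si:ch73-359m17.5 stood at 254 ± 310 CPM and chia.6 at 709 ± 724 CPM. Of the 6, chia.6 was thus the one with the highest mean in neutrophils. All 6 had counts in 2 of the 4 cLC libraries and in 1 of the 3 T cell libraries.

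The gene beside chia.6 in the order of GRCz12tu, pm20d1.2, which encodes an enzyme of the peptidase M20 family, did not share its profile. It stood at 49.1, 10.1, 12.8 and 0 CPM in MLCs replicates 1 to 4 (18.02 ± 21.5), with a higher mean in cLCs (44.3 ± 58.8 CPM) and a lower one in neutrophils (9.82 ± 12.4 CPM). Its groups overlapped. The next gene, pm20d1.1, stood at 1.38 ± 2.25 CPM in MLCs and at 0 in neutrophils.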
